A study of Mus musculus with 2 samples.

Results

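Hyaluronan and versican build the swollen matrix of the heart's endocardial cushions, and 10 mouse genes that make, link, bind or break down this matrix were followed in sorted cardiac neural crest cells. The genes are Has1, Has2, Has3, Vcan, Hapln1, Hapln3, Cd44, Tnfaip6, Hyal1 and Hyal2, taken as a list by name. A gene was measured when a transcript cluster, a group of probes summarised as 1 value, was annotated to that symbol alone. Of the 10 genes, 9 met this, each with 1 cluster, among 19938 genes in all. Hyal1, which encodes a lysosomal hyaluronidase, has no value here because both of its clusters were also annotated to a second gene.

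The study compared Adam19-/- with Adam19+/+ embryos at stage E14.5 on a C57BL/6 background. Adam19 encodes a membrane-anchored metalloprotease. In both genotypes the cells also carried Wnt1-Cre and 1 copy of R26tdTomato, a red reporter that Cre switches on in cells with a history of Wnt1 expression, which include the neural crest. The hearts were broken up with collagenase, red cells were sorted, and their RNA was hybridised to Affymetrix Mouse Gene 1.0 ST arrays. The Adam19-/- genotype is that of the whole embryo, so cells around the sorted ones lacked Adam19 as well. There was 1 array per genotype (n = 1 each), how many embryos went into each is not stated in the sources used here, and no difference below has a replicate check, a standard error or a p-value.

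Hyaluronan is an unsulphated sugar chain that synthases in the plasma membrane extend from the sugar nucleotides UDP-glucuronic acid and UDP-N-acetylglucosamine. Versican, a large chondroitin sulphate proteoglycan, docks on the chain through its hyaluronan-binding end, and link proteins lock the pair together. The complex holds water, and mouse embryos that lack Has2 or Vcan fail to form endocardial cushions. Neural crest cells enter the cushions of the outflow tract and contribute to the wall between the aorta and the pulmonary trunk.

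All values are log2 signals as deposited, and differences are Adam19-/- minus Adam19+/+. The number of arrays limits the precision. A floor of 8.01 was used, which is the middle value when genes are ordered by mean signal. It is not a limit of detection, and signals of different genes are not compared, since probes differ in how brightly they respond. As a check of the labels, Adam19 was at 9.77 on the Adam19-/- array, against 11.62 on the Adam19+/+ array, a difference of -1.85. The median difference was 0.01 over all 19938 genes and 0.04 over the 10122 above the floor on at least 1 array, where the central 95% ran from -0.20 to 0.30. Where a gene had 2 clusters above the floor, their differences lay a median of 0.05 apart, with a 95th percentile of 0.24, which holds no variation between embryos. Of the Y-linked genes, the measured Eif2s3y, Uty and Kdm5d had differences of -1.62, -1.42 and -1.17, so the samples were not alike in them, and the part of that in any result here was not tested. Xist, an RNA that coats the silenced X chromosome in female cells, was at 11.14 on the Adam19-/- array, against 11.25 on the Adam19+/+ array, a difference of -0.11. None of the 10 genes lies on chromosome 11, where Adam19 is.

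Has2 and Hapln1 stood out among the 9 genes, both higher in Adam19-/- cells, while the proteoglycan Vcan, the receptor Cd44 and the hyaluronidase Hyal2 differed by 0.15 or less and Tnfaip6 was a little lower. Of the 9, 5 were higher, 3 lower and 1 equal, beside 51.7% of all genes that were higher by any amount. Their median difference was 0.09, and the range ran from -0.27 to 0.58. The median was smaller under other scalings, at 0.05 after quantile normalisation or centring on the median gene and at 0.03 after centring on a lowess curve. At a fold of at least 1.2, 2 of the 9 were higher, beside 5.07% of all genes, and 1 was lower, beside 2.02% of all genes. The 6 genes above the floor, namely Has2, Vcan, Hapln1, Cd44, Tnfaip6 and Hyal2, were above it on both arrays. Of these, 5 were higher, beside 65.2% of genes above the floor. Has2 and Hapln1 were at least 1.2-fold higher, beside 4.06% of genes above the floor, and none of the 6 was at least 1.2-fold lower, beside 1.13%. None of the 6 reached 1.5-fold in either direction, beside 0.148% of genes above the floor that were higher and 0.0889% that were lower by that much.

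**Figure D1:**
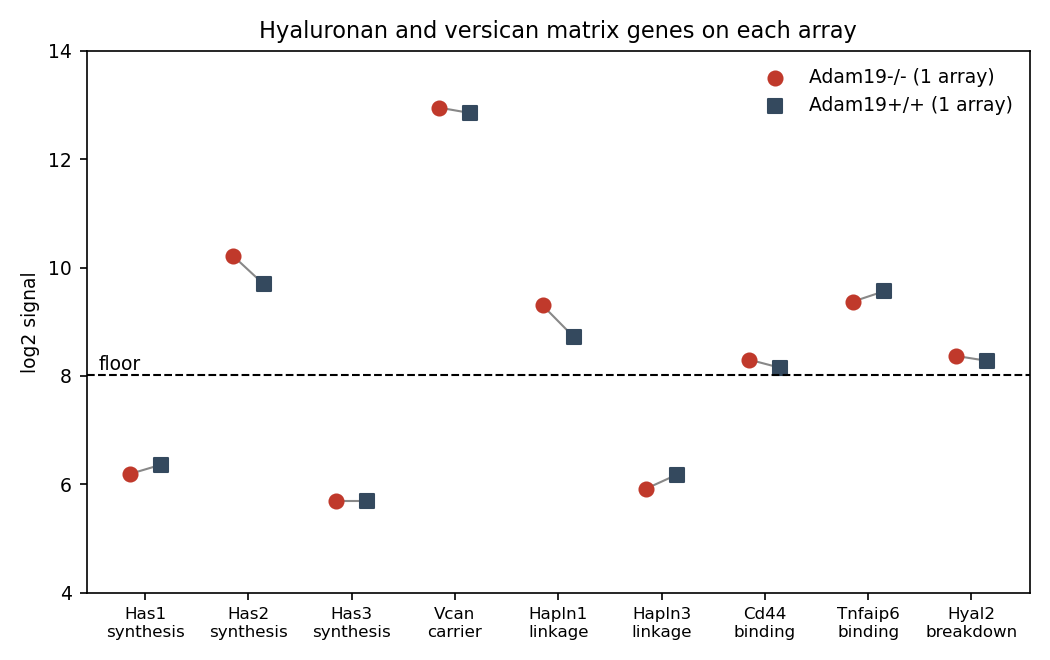
Log2 signal (vertical axis) of the 9 measured genes on the Adam19-/- array (circles) and the Adam19+/+ array (squares), with the floor of 8.01 as a dashed line. Lines join the values of 1 gene; those of Has2 and Hapln1 span 0.53 and 0.58, and Has1, Has3 and Hapln3 lie under the floor on both arrays.

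Promoter sequence is shown for the gene with the highest difference, Hapln1, for the lowest of those above the floor, Tnfaip6, and for Vcan, the proteoglycan that Hapln1 fixes to hyaluronan and its neighbour on chromosome 13, with 0 protein-coding genes between them. Each run is the 250 bases before the annotated start, 5′ to 3′ on the gene's strand, from RefSeq's GRCm38.p6 assembly, and 8 of the 10 genes matched an entry of that table, all but Has2 and Has3. The Hapln1 run is chr13:89540386-89540635 on the plus strand, that of Tnfaip6 chr2:52037863-52038112 on the plus strand, and that of Vcan chr13:89742513-89742762 on the minus strand. Capitals mark matches to ACAAT, a core bound by SOX factors, or to TGANTCA, the AP-1 element, on either strand. The motifs were chosen after the sequences had been seen.
Hapln1: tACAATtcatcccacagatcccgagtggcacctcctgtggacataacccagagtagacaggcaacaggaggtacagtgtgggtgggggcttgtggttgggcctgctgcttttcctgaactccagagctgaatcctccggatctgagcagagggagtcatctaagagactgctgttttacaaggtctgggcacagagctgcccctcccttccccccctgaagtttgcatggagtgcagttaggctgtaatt
Tnfaip6: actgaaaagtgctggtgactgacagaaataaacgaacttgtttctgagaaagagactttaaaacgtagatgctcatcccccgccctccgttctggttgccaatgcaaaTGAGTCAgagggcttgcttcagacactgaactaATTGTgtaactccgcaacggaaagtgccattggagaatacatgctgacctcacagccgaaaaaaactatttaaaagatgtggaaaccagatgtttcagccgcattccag
Vcan: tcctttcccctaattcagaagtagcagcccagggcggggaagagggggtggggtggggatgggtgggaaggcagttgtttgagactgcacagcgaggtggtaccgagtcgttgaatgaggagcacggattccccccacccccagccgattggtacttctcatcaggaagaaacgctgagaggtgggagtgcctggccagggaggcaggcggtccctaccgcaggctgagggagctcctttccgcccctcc
The Hapln1 run held 1 match to ACAAT, 249 to 245 bases before the start. Tnfaip6 held 1 match to ACAAT, read as ATTGT on the other strand, and 1 to TGANTCA, 142 to 136 bases before the start. The Vcan run held neither. Over the same 250 bases of all 32851 promoters in the table, 27.7% held ACAAT and 6.75% held TGANTCA, so the first is common. Hapln3, whose signal was lower in Adam19-/- cells, also held 1 match to ACAAT. The E-box CANNTG, read by Twist and other basic helix-loop-helix factors and found in 66.2% of all promoters, was absent from the Hapln1 run. It had 1 match in the Vcan run and 2 in that of Tnfaip6, 1 of which shares bases with the AP-1 match. The hypoxia response core ACGTG, present in 16.6% of all promoters, had a match only in the Cd44 promoter among the 8 searched. These matches describe letters in a window and are no evidence of binding.

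Of the synthases, Has2 alone differed by at least 1.2-fold. Has2 is the synthase that makes the hyaluronan of the embryonic heart. It was at 10.22 on the log2 scale in Adam19-/- cells, against 9.69 in Adam19+/+ cells, which on the linear scale is 1195 in Adam19-/- cells against 826 in Adam19+/+ cells. The difference of 0.53, or 1.45-fold, was the 32nd highest of the 10122 genes above the floor. Among the 2967 other genes whose mean signal lay within 0.5 of that of Has2, 5 differed by as much upwards, and the central 95% of these genes spanned -0.18 to 0.28. Has2 had 1 cluster, so no second probe group checks it. Has1, the least active of the synthases, was at 6.19 in Adam19-/- cells, against 6.36 in Adam19+/+ cells, for a difference of -0.17. Has3, which makes shorter chains, was at 5.69 on both arrays, an exactly equal pair of the kind found in 14.2% of all genes. Both lay under the floor on both arrays, where genes of similar signal to Has1 spread from -0.31 to 0.34, so neither difference lay outside that of dim genes.

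Versican itself differed little. Vcan was at 12.95 in Adam19-/- cells, against 12.85 in Adam19+/+ cells, for a difference of 0.10 or 1.07-fold. Among 262 other genes of similar signal, 27 differed by as much upwards, and their central 95% ran from -0.13 to 0.16. The splice forms of versican, which differ in how much chondroitin sulphate they carry, are not told apart by this 1 value. The neighbours Vcan and Hapln1 thus differed by unlike amounts on the same arrays.

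Linkage was represented by Hapln1 and Hapln3, and only Hapln1 was above the floor. Hapln1, cartilage link protein, ties versican or aggrecan to hyaluronan, and mice that lack it have heart malformations. It was at 9.30 in Adam19-/- cells, against 8.72 in Adam19+/+ cells, which on the linear scale is 632 in Adam19-/- cells against 422 in Adam19+/+ cells. The difference of 0.58 was the 16th highest of the genes above the floor. At 1.499-fold it lay just under the fold of 1.5. Of the 2878 other genes of similar signal, 5 differed by as much upwards, and the central 95% of these genes spanned -0.21 to 0.32. Hapln3, a link protein of wider distribution, was at 5.92 in Adam19-/- cells, against 6.18 in Adam19+/+ cells, for a difference of -0.27. That is just past 1.2-fold, at 1.203-fold lower, in a gene under the floor on both arrays, and 4.18% of the 3087 other genes of similar signal were as low.

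Among the binding genes, Cd44 and Tnfaip6 differed in opposite directions by small amounts. Cd44, the main cell-surface hyaluronan receptor, was at 8.30 in Adam19-/- cells, against 8.15 in Adam19+/+ cells, for a difference of 0.15. Of the 2499 other genes of similar signal, 25.7% were as high. Leukocytes carry abundant Cd44, and all 12 of 12 measured leukocyte markers were higher on the Adam19-/- array, beside 51.7% of all genes. Of the 12, 4 were above the floor, where 65.2% of genes were higher. The 12 had a median difference of 0.38 and a range from 0.05 to 0.68. Their summed linear signal was 3052 in Adam19-/- cells, against 2283 in Adam19+/+ cells, and none was at the lowest listed value, 4.09. Laptm5 differed by 0.68, C1qb by 0.65, and Fcer1g and Lyz2 by 0.56 each, with Lyz2 under the floor on both arrays. The defining marker Ptprc was at 6.26 in Adam19-/- cells, against 6.05 in Adam19+/+ cells, also under the floor. The part of these markers in the difference of Cd44 was not tested. In sorted bulk RNA, more cells of a type and more RNA per cell cannot be told apart, here and in what follows.

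Tnfaip6, known as TSG-6, passes the heavy chains of inter-alpha-inhibitor onto hyaluronan and so crosslinks it. It was at 9.37 in Adam19-/- cells, against 9.56 in Adam19+/+ cells, for a difference of -0.19 or 1.14-fold lower. It was the 302nd lowest of the 10122 genes above the floor. Of the 3026 other genes of similar signal, 2.91% were as low, and their central 95% started at -0.20, so Tnfaip6 lay just inside it.

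Breakdown was represented by Hyal2, a surface-anchored hyaluronidase that cuts long chains into large fragments. It was at 8.37 in Adam19-/- cells, against 8.28 in Adam19+/+ cells, for a difference of 0.09, which was 0.05 after quantile normalisation and 0.03 after centring on a lowess curve. Of the 2535 other genes of similar signal, 40.5% were as high. Hyal2 therefore did not stand apart from genes of its signal.

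**Figure D2:**
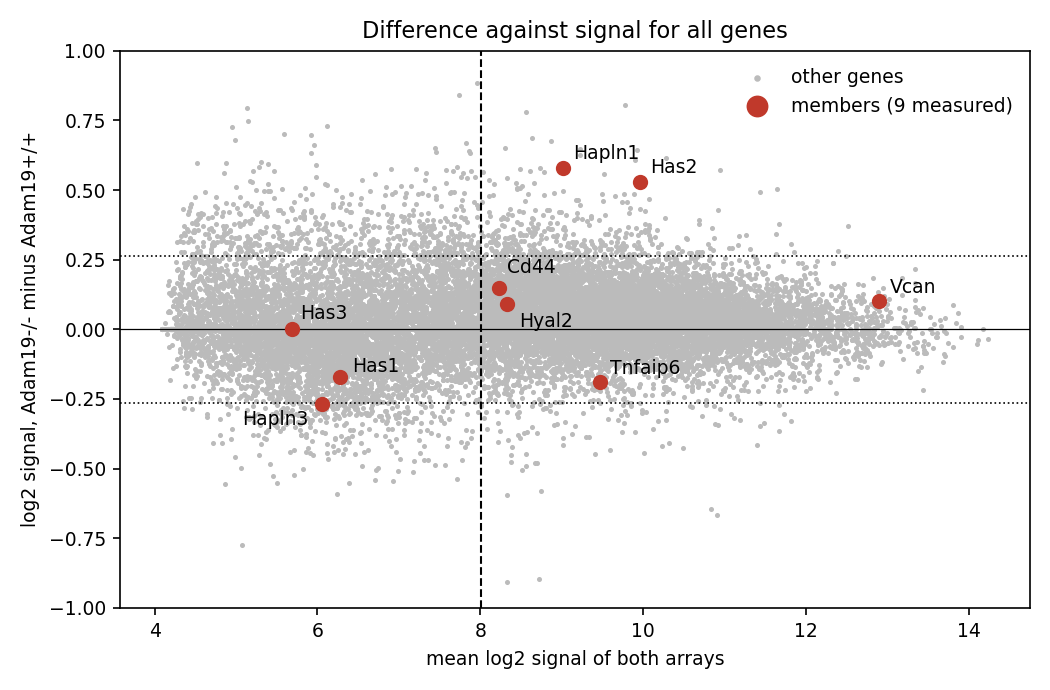
Difference in log2 signal, Adam19-/- minus Adam19+/+ (vertical axis), against the mean log2 signal of both arrays (horizontal axis), for all genes (grey) and the 9 measured genes (red). The dashed line is the floor, dotted lines mark 1.2-fold, and 4 genes beyond 1 in either direction are not drawn. Has2 and Hapln1 lie at the upper edge of genes of their signal.

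Other genes of hyaluronan supply and turnover showed smaller differences than Has2. Of 9 genes that supply or carry sugar nucleotides, 6 were higher and 3 lower, the median being 0.07, and none reached 1.2-fold. All 9 were above the floor, where 65.2% of genes were higher by any amount. Ugdh, which makes UDP-glucuronic acid, was at 11.60 in Adam19-/- cells, against 11.44 in Adam19+/+ cells, for a difference of 0.16. Slc35d1, a transporter of UDP-sugars used in chondroitin sulphate synthesis, had the highest difference of this list, 0.25. Ugp2, which makes UDP-glucose, differed by 0.10, and Uap1, which makes UDP-N-acetylglucosamine, by -0.01, with Gfpt1 at 0.07. Of 8 other genes of hyaluronan breakdown, 5 were higher, 1 lower and 2 the same, beside 51.7% of all genes that were higher. Their median was 0.03 and none was past 1.2-fold. Cemip, which takes part in hyaluronan depolymerisation, differed by -0.15 with signal under the floor on both arrays, the related Cemip2 by 0.04 and Hyal3 by 0.05. The lysosomal enzymes Gusb and Hexa, which trim hyaluronan fragments, differed by 0.11 and 0.09.

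The other binders gave differences in both directions. Of 16 other receptors and binders, 6 were higher, 7 lower and 3 the same, with a median of 0. Of all genes, 51.7% were higher by any amount and 14.2% equal. The 2 past 1.2-fold were Ptx3 and Stab1, both higher, beside 5.07% of all genes at least 1.2-fold higher. Ptx3, a pentraxin that with TSG-6 organises the hyaluronan matrix around the mouse egg, was at 8.53 in Adam19-/- cells, against 8.13 in Adam19+/+ cells, for a difference of 0.40 and opposite in sign to that of Tnfaip6. Stab1, a scavenger receptor of macrophages and some endothelium, was at 7.45 in Adam19-/- cells, against 7.09 in Adam19+/+ cells, under the floor on both arrays, and it differed by 0.36 beside the leukocyte markers above. Itih5, of the family of inter-alpha-inhibitor heavy chains, differed by -0.22. Tlr2, a receptor reported to sense hyaluronan fragments and versican, differed by 0.20. Hmmr, a hyaluronan-binding protein of dividing cells, differed by -0.13, and Lyve1, the receptor of lymphatic endothelium, by 0.01.

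Hapln1 and Vcan each belong to a family, and the relatives did not share the difference of Hapln1. Of the 5 other lecticans and link proteins, 4 were lower and 1 equal, with a median of -0.07. Of all genes, 51.7% were higher by any amount and 14.2% equal. Acan, the cartilage proteoglycan that Hapln1 also links, was at 9.63 in Adam19-/- cells, against 9.93 in Adam19+/+ cells, for a difference of -0.29. That is past 1.2-fold lower, beside 2.02% of all genes. Ncan and Bcan, proteoglycans of the nervous system, differed by -0.02 and -0.19, Hapln4 by -0.07 and Hapln2 by 0. Bcan, Hapln2 and Hapln4 were under the floor on both arrays.

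Proteases that cut versican and proteins that bind it were also near the middle of all genes. Of 6 ADAMTS genes whose products cut versican, 2 were higher and 4 lower, beside 51.7% of all genes that were higher. Their median was -0.02. Only Adamts4 was past 1.2-fold, and it was higher, beside 5.07% of all genes at least 1.2-fold higher. Adamts4 was at 8.81 in Adam19-/- cells, against 8.51 in Adam19+/+ cells, for a difference of 0.31. Adamts5, which clears versican from mouse valves, differed by -0.07, Adamts9 by -0.07 and Adamts15 by 0.07. Of 9 measured versican partners, 6 were higher and 3 lower, the median being 0.06 and none past 1.2-fold. Above the floor, where 8 of these 9 lay, 65.2% of genes were higher by any amount. Tnc and Fbln1, extracellular proteins of matrix rich in versican, differed by 0.16 and 0.12, Fbln2 by -0.09 and Fbn2 by 0.08.

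Markers of cells that the sort could hold were set beside Has2 and Hapln1. Of 10 markers of cushion and valve mesenchyme, 9 were higher and 1 lower, the median being 0.25. Above the floor, where 9 of the 10 lay, 65.2% of genes were higher by any amount. At least 1.2-fold higher were 5, beside 5.07% of all genes, with Msx1 under the floor on both arrays. Of the 9 above the floor, 4 were, beside 4.06% of genes above the floor. Above a higher floor of 9.76 the median of this list was 0.11. Their summed linear signal was 33716 in Adam19-/- cells, against 31585 in Adam19+/+ cells. Sox9, a transcription factor of cushion mesenchyme and cartilage, was at 11.23 in Adam19-/- cells, against 10.65 in Adam19+/+ cells, for a difference of 0.57. The tendon and valve factor Scx differed by 0.42, Twist1 by 0.40, Msx2 by 0.27 and Postn, a matrix protein of valves, by -0.08. Col1a1 differed by 0.05 and Prrx1 by 0.04. Of 10 cartilage markers, 7 were higher, 2 lower and 1 the same, beside 51.7% of all genes that were higher by any amount. Their median was 0.10 and their summed signal 7141 in Adam19-/- cells, against 6156 in Adam19+/+ cells. Col9a1 differed by 0.43 and Col2a1 by 0.27, while Acan was lower and Cnmd differed by 0.01. Matn1, Matn3 and Comp, under the floor on both arrays, differed by -0.04, 0 and 0.07. Above the higher floor, where only Sox9, Cnmd and Acan of the cartilage list lay, the cartilage median was 0.01. The cushion and cartilage lists share Sox9.

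Markers of endothelium, cardiomyocytes and epicardium each had a higher summed signal on the Adam19-/- array, though the epicardial median was 0. For the counts below, 51.7% of all genes and 65.2% of genes above the floor were higher by any amount. Of 9 markers of endothelium and endocardium, 6 were higher, 2 lower and 1 the same, with a median of 0.22 and a summed signal of 4945 in Adam19-/- cells, against 4799 in Adam19+/+ cells. Nfatc1 of the endocardium differed by 0.49, Pecam1 by 0.27 and Cdh5 by 0.26, with Egfl7 at 0.23. Pecam1 and Cdh5 were under the floor on both arrays. Emcn differed by -0.09 and Tie1, also under the floor, by 0. Of the 6 endothelial markers above the floor, 1 was at least 1.2-fold higher, beside 4.06% of genes above the floor. Of 9 cardiomyocyte markers, 7 were higher and 2 lower, with median 0.17 and a summed signal of 5711 in Adam19-/- cells, against 5274 in Adam19+/+ cells, led by Myl7 at 0.78, Pln at 0.54, Myh6 at 0.39 and Myh7 at 0.20. Above the higher floor, the endothelial and cardiomyocyte lists each kept 1 marker, Npr3 at -0.12 and Tnnt2 at -0.10. All higher markers in these 2 lists were thus under that higher floor. So were Emcn, Tie1 and Tnni3, the last at -0.03, which were not higher. Of 7 epicardial markers, 3 were higher, 3 lower and 1 the same, with a median of 0 and a summed signal of 2609 in Adam19-/- cells, against 2449 in Adam19+/+ cells. Krt18 differed by -0.23, Upk1b by -0.22, Tbx18 by 0.21 and Aldh1a2 by 0.20. Tbx18 had the highest signal of the 7 and so weighed most in that sum. It was at 10.40 in Adam19-/- cells, against 10.19 in Adam19+/+ cells. The epicardial marker Wt1 was at 7.61 on both arrays, under the floor. No marker of these lists was at the lowest listed value. The part of these markers, and of the leukocyte markers above, in the differences of Has2 and Hapln1 was not tested.

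Cell types known to arise from the cardiac neural crest had markers above the floor on both arrays. Acta2, smooth muscle actin, was at 13.62 in Adam19-/- cells, against 13.74 in Adam19+/+ cells, and all 6 smooth muscle markers were lower, with a median of -0.10 and a summed signal of 26527 in Adam19-/- cells, against 28596 in Adam19+/+ cells. Tagln differed by -0.15, Smtn by -0.13 and Myh11 by -0.08. All 6 were above the floor, where 6603 of 10122 genes were higher and 108 equal. None of the 6 was at least 1.2-fold lower, beside 1.13% of genes above the floor. Of 6 measured markers of neurons and glia, 4 were higher and 2 lower, beside 51.7% of all genes that were higher by any amount. Their median was 0.08 and their summed signal 16920 in Adam19-/- cells, against 16987 in Adam19+/+ cells. Sox10, which marks neural crest and its glia, was at 10.50 in Adam19-/- cells, against 10.45 in Adam19+/+ cells. Th and Dbh, enzymes of noradrenaline synthesis, differed by 0.46 and 0.43, the glial gene Fabp7 by -0.15 and Hand2 by 0.11.

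**Figure D3:**
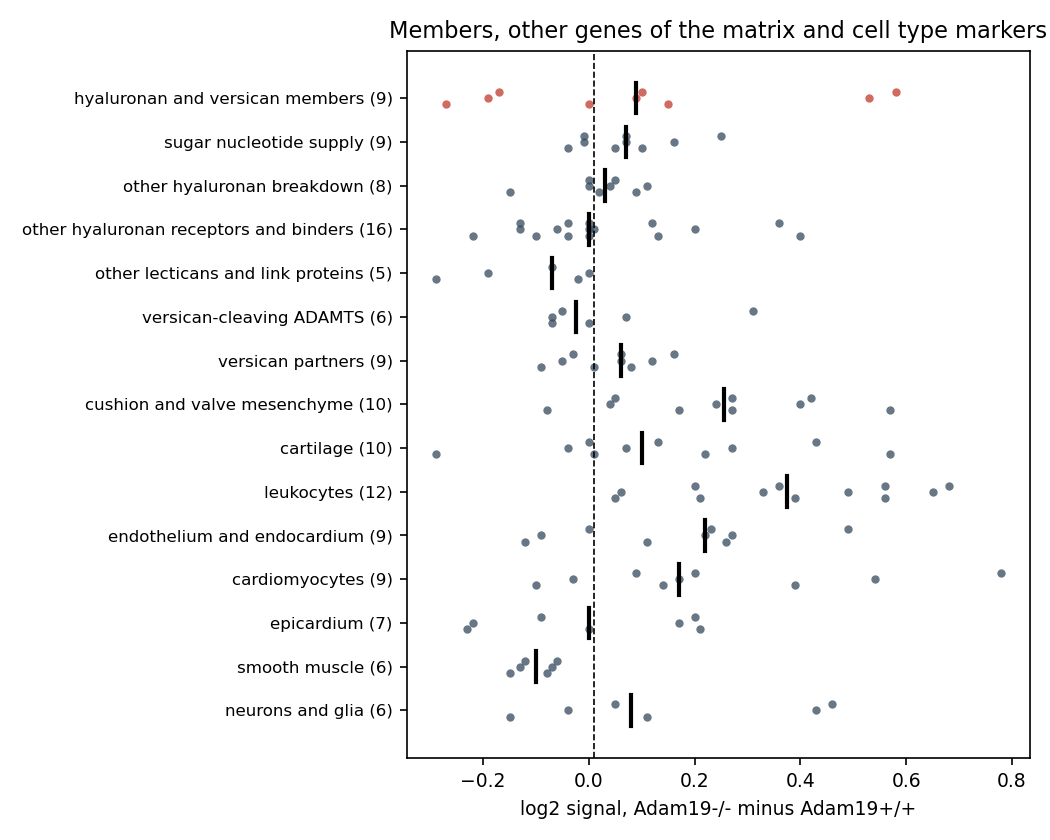
Difference in log2 signal, Adam19-/- minus Adam19+/+ (horizontal axis), of each gene (points) in the 9 measured members (red) and 14 other lists (dark), with the number measured in brackets. Thick bars are list medians and the dashed line is the median of all genes, 0.01; Has2 and Hapln1 lie apart from the other 7 members, and the leukocyte list has the highest median, 0.38.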

How the data were processed

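RNA of tdTomato-positive cells was measured on 2 Affymetrix Mouse Gene 1.0 ST arrays, 1 per genotype, grouped by the genotype label. The values are log2 signals, which the authors deposited as 1 table of 28853 clusters. Background correction, normalisation and summarisation are not stated in the sources used here. The base of the logarithm, also unstated, was taken as log2, because natural logarithms would put the highest linear signal at 2.02e+06, above the scanner limit of 65535. Nothing was renormalised for the main values.

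The platform annotation of 2016 named the clusters, with symbols updated by Entrez identifier from a GRCm38.p6 RefSeq gene table. Of 21789 clusters with 1 symbol, 21698 matched that table. Clusters with several symbols (1621) or none listed (5443) were left out. The brightest cluster stood for a gene. Levels and differences were computed in Python 3.11.15 with numpy 2.4.6, pandas 2.3.3 and statsmodels 0.14.6, and figures were drawn with matplotlib 3.10.9. The steps were tested on simulated data.

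The members, the 15 other lists and the fold thresholds of 1.2 and 1.5 were chosen with earlier results of these data known. All members are named, and of each other list up to 4 genes with the largest absolute difference plus defining markers. Others of those lists, such as Uap1, Cemip2, Hmmr, Lyve1, Hapln2, Npr3, Tnnt2, Emcn, Tie1, Tnni3, Cnmd, Matn1, Col1a1 and Prrx1, were named after their values were seen. Some listed genes are not analysed here. Alternatives covered normalisation, centring, a pseudocount, clusters and the floor.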

Additional observations from a re-analysis of the deposited data

How the results depend on the processing

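With 1 array per genotype, no alternative measures variation between embryos. No paired analysis was possible because each genotype had 1 array and no test was made. A difference or median was taken as moved when, before rounding, it shifted by at least 0.0549, the median gap between 2 clusters of a gene. A count of members past a fold was taken as moved when it changed by more than 1.5-fold, or to or from none. By these rules 162 values did not move and 19 did. The 162 include the members under averaging of clusters, which could not change them. The members' median of 0.09 was at 0.05 after quantile normalisation or centring on the median gene, and at 0.03 with the lowess curve, and the same values held for Hyal2. Quantile normalisation, centring on the median gene, centring on a lowess curve, adding 32 to the linear signal and averaging clusters left Has2 between 0.49 and 0.53 and Hapln1 between 0.53 and 0.58, the lowest for Hapln1, 0.53, under the lowess curve. Each member has 1 cluster, so averaging could not change it. Under these 5 settings the signs of Vcan, Cd44, Hyal2, Tnfaip6, Has1 and Hapln3 held, and Has3, equal as deposited, ran from -0.04 to 0.02. With the pseudocount Hapln3 was at -0.18, the leukocyte median at 0.32 and that of Y-linked genes with Xist at -1.17. The lowess curve put the endothelial median at 0.16. With the floor at the 75th percentile, 9.76, 1 member, Has2, was at least 1.2-fold higher, and with no floor 1, Hapln3, was 1.2-fold lower. List medians were taken over all measured genes. With the 75th-percentile floor they were 0.09 for other breakdown genes, 0.11 for cushion and 0.01 for cartilage. Some lists kept 1 gene there: Acan at -0.29 for lecticans and link proteins, and Tbx18 at 0.21 for epicardium. Npr3 at -0.12 was the 1 endothelial gene and Tnnt2 at -0.10 the 1 cardiomyocyte gene, against positive medians over all. Of the Y-linked genes with Xist, only Xist at -0.11 was above it, so that value holds no Y-linked gene. With the floor at 8.01, added after the data were seen, they were 0.09 for other breakdown genes, -0.16 for lecticans and link proteins, 0.22 for cartilage and 0.61 for leukocytes. Has1, Has3 and Hapln3 lie under the floor, where dim signal limits what a difference can show.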
